A study of Mus musculus with 15 samples.

Results

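Members of the tumor necrosis factor (TNF) superfamily were followed in bulk RNA from whole mouse liver. The 10 genes were taken by name and comprise the ligands Tnf, Ltb, Tnfsf10 and Tnfsf13b and the receptors Tnfrsf1a, Tnfrsf1b, Fas, Cd40, Tnfrsf12a and Tnfrsf21. They were 10 of 37991 gene identifiers in the deposited table, and 9 of them passed the filter on low counts and were tested. Tnfsf13b did not pass and was described from its values. The series held 15 livers of female C57BL/6 mice, 5 in each of 3 groups: S6K1 WT mice aged 90 days (young WT), S6K1 WT mice aged 600 days (old WT) and S6K1 KO mice aged 600 days (old KO). S6K1, encoded by Rps6kb1, is a kinase downstream of mTORC1, and the KO is a global deletion carried by every cell of the animal. No agent was given, and no young KO group was analysed here, so an effect of the deletion that was already present in youth cannot be told apart from one that arises in old age. Age and genotype were each compared with the same 5 old WT livers, so these comparisons are not independent.

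TNF superfamily ligands are mostly trimeric membrane proteins that can act on a neighboring cell or be shed, and their receptors either recruit TRAF adaptors that activate NF-kB or carry a death domain that can start apoptosis. In liver, ligands such as TNF and lymphotoxin-beta are made mainly by macrophages and lymphocytes, while hepatocytes carry TNF receptor 1 and Fas and are sensitive to Fas ligation. The family is known for its part in inflammation, regeneration and hepatocyte death.

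Libraries held 21801754 to 38065359 counted reads in the young WT livers, 27063911 to 31990482 in the old WT livers and 21984658 to 27923739 in the old KO livers. Rps6kb1 served as the check of the labels. It was at 38.3 ± 3.14 CPM (read counts scaled to libraries of 1000000 reads) in young WT, 38.4 ± 4.21 in old WT and 17.0 ± 2.23 in old KO (SD, n = 5 each), and no old KO liver overlapped any WT liver. Old KO libraries still held 363 to 449 reads of Rps6kb1, and these counts do not measure the kinase protein. Albumin and the other 4 hepatocyte markers summed to 73710 CPM or more in every liver. The lowest of these sums belonged to young WT 6, which was also the shallowest library. CPM here are scaled by TMM library sizes. Changes are log2 fold changes from edgeR's quasi-likelihood test over 14258 genes, with Benjamini-Hochberg adjusted p-values called under 0.05.

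Among these 10 genes the highest levels belonged to receptors, although the receptor Cd40 had a lower mean than the ligands Tnfsf10 and Ltb. Per kb of exon, the mean level in young WT ran from 25.2 CPM per kb for Tnfrsf1a, the broadly expressed death-domain receptor for TNF, through 11.6 for Fas, 10.6 for Tnfrsf1b and 7.03 for Tnfrsf12a, the receptor for TWEAK. It was 1.86 CPM per kb for Tnfrsf21 (death receptor 6) and 1.31 for Tnfsf10, which encodes the apoptosis-inducing ligand TRAIL. Ltb, Cd40, Tnfsf13b and Tnf followed at 0.441, 0.339, 0.168 and 0.123 CPM per kb. The order of the first 8 genes was the same in all 3 groups, and only the bottom pair, Tnf and Tnfsf13b, changed places: in old WT Tnf averaged 0.317 CPM per kb and Tnfsf13b 0.302. Several neighbors in this order were not separated by their spread over livers. In young WT the ranges of Fas and Tnfrsf1b overlapped, as did those of Tnfrsf1b and Tnfrsf12a, of Tnfrsf21 and Tnfsf10, and of each neighboring pair among the 4 lowest genes. Tnfrsf1a stood above Fas without overlap in young WT and old KO but not in old WT, where Fas reached 24.0 CPM per kb and Tnfrsf1a began at 20.8.

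**Figure D1:**
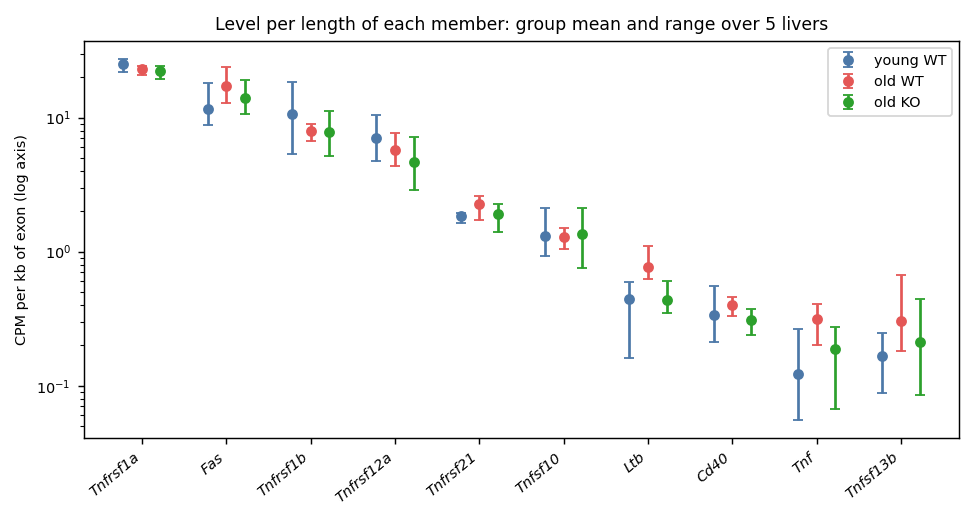
Level of each gene in CPM per kb of exon (log axis), with genes in the order of their old WT means; points are group means and bars run from the lowest to the highest of 5 livers. Tnfrsf1a was highest, at 25.2, 22.9 and 22.3 in young WT, old WT and old KO, and Tnf and Tnfsf13b were lowest.

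The first comparison asked how the family differed between old and young WT liver. Tnf, the founding cytokine of the family, rose 2.69-fold with age, and it was the only member that passed the test. Ltb, which forms the membrane lymphotoxin heterotrimer with lymphotoxin-alpha, and Fas, the receptor for Fas ligand, had higher means in old WT but missed the threshold. The remaining 6 tested members also missed it, 2 with higher and 4 with lower fitted values. With 1 of 9 tested members called (11.1%), the share was below the 18.8% of all tested genes called in this comparison.

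Tnf (ENSMUSG00000024401) lies on chromosome 17 at 35336326 to 35338952 on the minus strand, and Ltb (ENSMUSG00000024399) at 35331384 to 35333265 on the plus strand (NCBIM37). Both are protein coding, and 3060 bases separate them. The bases before both starts are shown because these neighboring genes had the largest fitted changes with age among the tested members. Those before Fas, the next in size among them, are shown as well. Sequences are RefSeq promoters (GRCm38.p6) found once, base for base, in NCBIM37, given 5′ to 3′ on the strand of the gene and ended at the gene's start in GENCODE M1. They cover chr17:35338953-35339202 (minus strand), chr17:35331202-35331383 (plus strand) and chr19:34364899-34365148 (plus strand). Capitals mark matches to the NF-kB-type motif GGGNNNNNCC on either strand, where N is any base.
Tnf: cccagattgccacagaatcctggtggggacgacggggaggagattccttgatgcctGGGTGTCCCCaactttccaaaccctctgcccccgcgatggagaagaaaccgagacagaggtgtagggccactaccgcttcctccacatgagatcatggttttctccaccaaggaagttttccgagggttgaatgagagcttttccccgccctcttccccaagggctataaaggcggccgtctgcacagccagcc
Ltb: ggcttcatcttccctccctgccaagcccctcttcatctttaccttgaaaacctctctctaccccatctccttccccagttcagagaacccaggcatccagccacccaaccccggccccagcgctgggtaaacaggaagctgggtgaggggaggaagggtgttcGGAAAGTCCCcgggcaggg
Fas: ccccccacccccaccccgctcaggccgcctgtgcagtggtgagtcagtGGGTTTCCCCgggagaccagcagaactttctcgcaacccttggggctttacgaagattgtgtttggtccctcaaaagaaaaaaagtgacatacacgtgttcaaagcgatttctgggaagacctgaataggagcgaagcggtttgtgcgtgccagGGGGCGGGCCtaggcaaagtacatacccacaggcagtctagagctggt
The match before Tnf began at -194, counted from the RefSeq start, and those before Fas at -202 and -48. Ltb had matches at -87 and, overlapping each other, at -40, -39 and -38, and these 3 lie within the gene as GENCODE M1 draws it and are not in the stretch shown. Within 250 bases upstream, the motif was found in 6 of 9 members with a RefSeq promoter, namely Tnf, Ltb, Fas, Tnfrsf1a, Tnfrsf1b and Tnfrsf12a. It was found in 45.8% of all 32851 promoters of that length, so a match is common. The letters TATAAA, present in 12.4% of those promoters, occurred in these windows only in that of Tnf, at -29. Cd40 was not among the promoters.

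Tnf was at 0.105, 0.0916, 0.261, 0.121 and 0.431 CPM in the young WT livers 1, 2, 3, 4 and 6. In the old WT livers 1, 4, 5, 7 and 10 it was at 0.531, 0.640, 0.328, 0.440 and 0.662 CPM. In the old KO livers 1, 2, 4, 5 and 6 it was at 0.449, 0.109, 0.428, 0.419 and 0.139 CPM. Thus 4 of 5 old WT livers exceeded every young WT liver, old WT 5 fell below young WT 6, 3 old KO livers were within the old WT range, and old KO 2 and 6 lay below it. These levels rested on few reads, 3 to 10 per library in the young WT livers, 11 to 18 in the old WT livers and 3 to 12 in the old KO livers. The fitted change with age was 1.43 (SE 0.444, 95% interval 0.49 to 2.37, edgeR adjusted p = 0.0350). The call was lost when any of young WT 1, 2 and 4 or old WT 1, 4 and 10 was left out alone, with log2 fold changes of 1.25, 1.24, 1.28, 1.41, 1.35 and 1.33 and edgeR adjusted p-values of 0.0950, 0.0886, 0.0839, 0.0647, 0.0747 and 0.0688. It was also lost without the filter on low counts (adjusted p = 0.0571). The direction was higher in old WT in every one of these fits.

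Ltb was at 0.632, 0.244, 0.750, 0.814 and 0.905 CPM in young WT and at 1.19, 0.996, 1.04, 1.69 and 0.956 CPM in old WT, in the same order of livers. In old KO it was at 0.524, 0.545, 0.685, 0.922 and 0.650 CPM. Every old WT liver was above every young WT and every old KO liver, and the closest values were 0.956 in old WT 10, 0.922 in old KO 5 and 0.905 in young WT 6. The fitted change with age was 0.82 (SE 0.283, 95% interval 0.22 to 1.42, edgeR adjusted p = 0.0537). The call was gained with DESeq2 (adjusted p = 0.0348), with limma voom (0.0399) and without young WT 6 (0.0349). Ltb was the only member whose age groups did not overlap, a pattern seen in 11.4% of all tested genes.

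Fas (ENSMUSG00000024778), on chromosome 19 at 34365149 to 34402260, was at 18.6, 17.4, 19.5, 15.9 and 32.7 CPM in young WT. In old WT it was at 32.9, 24.9, 31.5, 23.1 and 43.2 CPM, and in old KO at 19.6, 23.0, 29.7, 19.3 and 34.2 CPM. Apart from young WT 6 (32.7 CPM), all young WT livers were below all old WT livers, and the old KO livers spread over both ranges. The fitted change with age was 0.58 (SE 0.217, 95% interval 0.12 to 1.04, edgeR adjusted p = 0.0702). It passed the test without young WT 6 (0.81, adjusted p = 0.00826) and without old WT 7 (0.68, 0.0435), and with DESeq2 and limma voom (0.0464 in each).

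**Figure D2:**
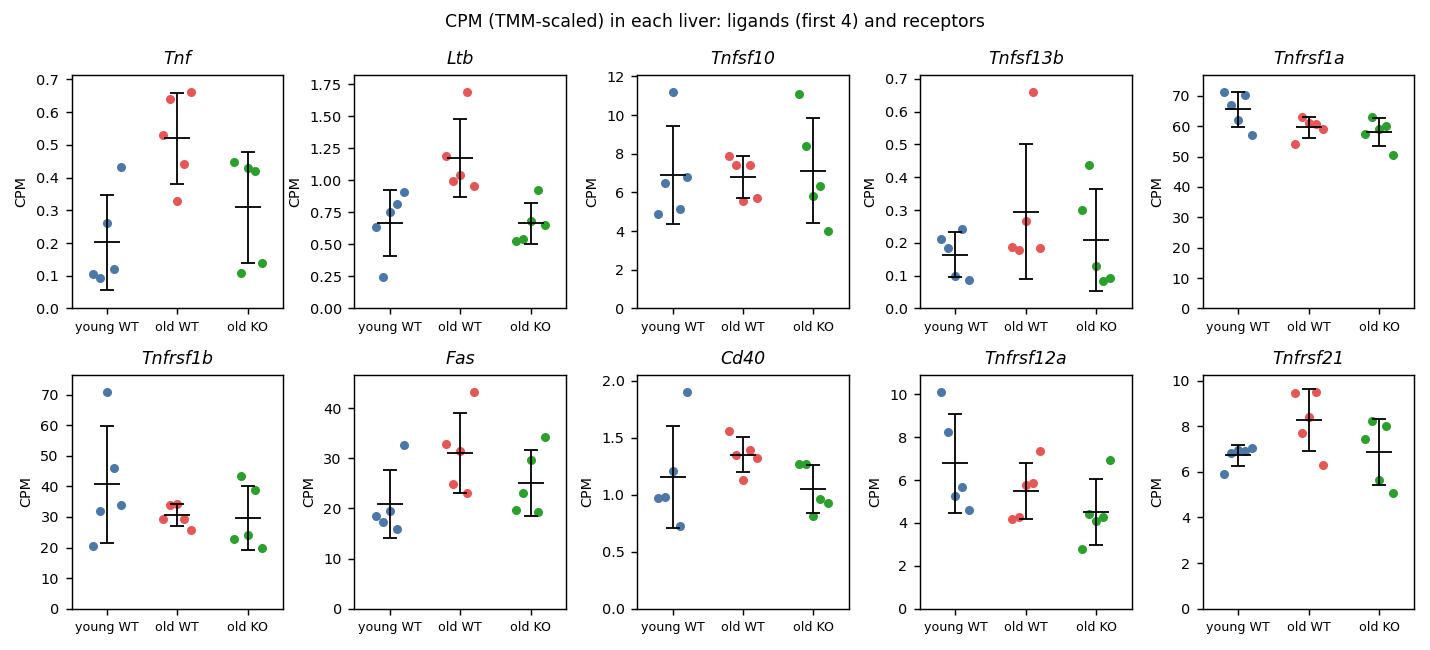
CPM (y axes, TMM-scaled) of the 10 genes; each point is a liver, in label order within its group, and bars are the mean ± SD of 5 livers. All 5 old WT livers exceeded the young WT and old KO livers for Ltb, 4 of 5 old WT livers exceeded young WT for Tnf, and the groups overlapped for the other genes.

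The receptors for TNF itself did not pass the test with age. Tnfrsf1a (ENSMUSG00000030341, chromosome 6, 125299380 to 125312502) varied little between livers, at 57.2 to 71.3 CPM in the young WT livers, 54.1 to 63.1 in the old WT livers and 50.5 to 62.9 in the old KO livers, with an age change of -0.14 (95% interval -0.30 to 0.025, edgeR adjusted p = 0.225). Tnfrsf1b (ENSMUSG00000028599, chromosome 4, 144803366 to 144836773), the receptor found mainly on leukocytes and endothelium, was at 20.4, 32.0, 70.8, 46.0 and 34.0 CPM in young WT, a 47.2% coefficient of variation, against 25.8 to 34.3 CPM in old WT, where the coefficient was 11.6%. Young WT 3 was the highest of all 15 livers for Tnfrsf1b, and also for Tnfsf10. The age change of Tnfrsf1b was -0.41 (95% interval -0.99 to 0.16, adjusted p = 0.308). The ratio of Tnfrsf1a to Tnfrsf1b per length was 2.84 ± 1.43 in young WT, 2.90 ± 0.308 in old WT and 3.10 ± 0.816 in old KO (SD, n = 5 each), with overlapping ranges of 1.29 to 5.14, 2.62 to 3.37 and 2.13 to 3.77.

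Tnfrsf21 (ENSMUSG00000023915, chromosome 17, 43153504 to 43226137) was at 5.90 to 7.03 CPM in young WT and 6.28 to 9.49 CPM in old WT, and 4 of 5 old WT livers exceeded every young WT liver. Its age change was 0.30 (95% interval -0.0062 to 0.61, edgeR adjusted p = 0.160). Tnfrsf12a (ENSMUSG00000023905, chromosome 17, 23812414 to 23814416) was at 10.1, 8.24, 5.25, 5.69 and 4.61 CPM in young WT, 4.19, 4.27, 5.78, 5.86 and 7.35 CPM in old WT, and 2.77, 4.43, 4.11, 4.28 and 6.96 CPM in old KO. The highest levels were in young WT 1 and 2 and the lowest in old KO 1, with overlap between all groups. Its age change was -0.31 (95% interval -0.83 to 0.21, adjusted p = 0.404). Tnfrsf12a overlaps Hcfc1r1 on the opposite strand and the strand setting of the counting is not given in the sources used here, so its counts are uncertain. Hcfc1r1 itself rose with age by 0.37 (edgeR adjusted p = 0.0428), opposite in sign to Tnfrsf12a.

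Cd40 (ENSMUSG00000017652, chromosome 2, 164881127 to 164898448), the costimulatory receptor of B cells and macrophages, was at 0.723 to 1.90 CPM in the young WT livers, 1.13 to 1.56 in the old WT livers and 0.814 to 1.27 in the old KO livers. Its age change was 0.25 (95% interval -0.24 to 0.73, edgeR adjusted p = 0.481), and young WT 6 held the highest value of all livers. Tnfsf10 (ENSMUSG00000039304, chromosome 3, 27215950 to 27241349) was at 4.87 to 11.2 CPM in the young WT livers, 5.55 to 7.90 in the old WT livers and 3.99 to 11.1 in the old KO livers, with an age change of -0.02 (95% interval -0.56 to 0.52, adjusted p = 0.967). Young WT and old KO each held 1 liver near 11 CPM, and their spread enclosed the old WT range.

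Tnfsf13b (ENSMUSG00000031497, chromosome 8, 10006843 to 10035441), which encodes the B cell survival factor BAFF, was at 0.211, 0.183, 0.0978, 0.241 and 0.0862 CPM in young WT. In old WT it was at 0.187, 0.178, 0.268, 0.660 and 0.184 CPM, and in old KO at 0.300, 0.436, 0.128, 0.0838 and 0.0928 CPM. Old WT 7 stood above every other liver, and the other 4 old WT livers lay within or just above the young WT range. With 2 to 18 reads a library, the difference in log2(CPM + 0.1) between old and young WT was 0.50 (two-sided exact permutation test, p = 0.183). The smallest p this test can give is 0.00794. The corresponding differences were -0.37 for old KO against old WT (exact p = 0.373) and 0.13 for old KO against young WT (exact p = 0.730).

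**Figure D3:**
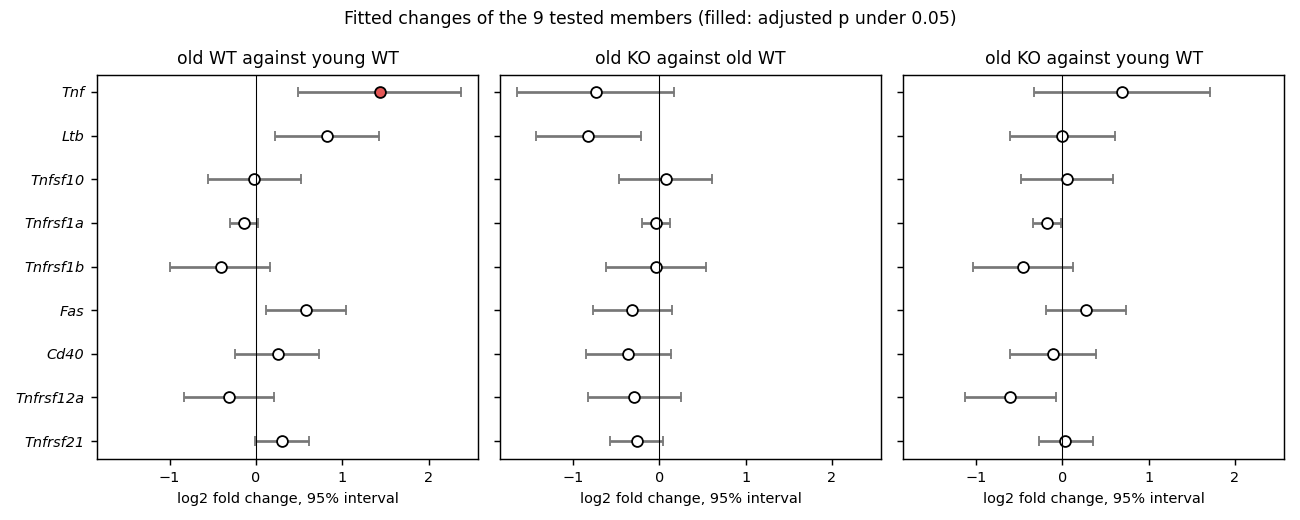
Fitted log2 fold change (x axis) of the 9 tested members in each comparison with its 95% interval; filled points have an adjusted p under 0.05. Tnf in old against young WT (1.43) is the only filled point, and in old KO against old WT 8 of 9 points lie below 0.

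The second comparison asked how S6K1 loss in old mice altered the family. No member passed the edgeR test, nor did any with DESeq2 or limma voom, and 1 member, Ltb, had an unadjusted p under 0.05. Across all tested genes 0.533% were called by edgeR, and 11.6% had an unadjusted p under 0.05. Fitted values were below 0 for 8 of the 9 and the median log2 fold change was -0.29, against 0.0008 over all tested genes. Ltb had the largest fitted difference, -0.82 (SE 0.290, 95% interval -1.43 to -0.21, edgeR adjusted p = 0.258), with a mean of 0.665 ± 0.159 CPM in old KO against 1.17 ± 0.299 CPM in old WT (SD, n = 5 each). It was the only member whose old KO and old WT livers did not overlap, which held for 3.20% of all tested genes. Its adjusted p ranged from 0.127 to 0.581 over all alternatives, and its sign was negative in each.

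The other members differed by less than could be told from the spread. Tnf was lower in old KO by a fitted -0.73 (95% interval -1.64 to 0.17, edgeR adjusted p = 0.537). Cd40, Fas, Tnfrsf12a and Tnfrsf21 had log2 fold changes of -0.36, -0.31, -0.29 and -0.26, with adjusted p-values of 0.595, 0.630, 0.728 and 0.516. The intervals of these 4 genes all reached past 0, so neither a fall nor a lack of change was shown. Tnfrsf1a was bounded most narrowly, at -0.04 (95% interval -0.20 to 0.12, adjusted p = 0.905). Tnfrsf1b and Tnfsf10 were at -0.037 (-0.62 to 0.54) and 0.074 (-0.47 to 0.61), with adjusted p-values of 0.983 and 0.951.

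Old KO and young WT livers were also set side by side. These groups differ in age and genotype together, so the part of each cannot be told apart here. No member was called by edgeR, DESeq2 or limma voom, where edgeR called 23.3% of all tested genes. An unadjusted p under 0.05 was found for 36.8% of all tested genes and for 2 members, both lower in old KO. These were Tnfrsf12a, at -0.60 (95% interval -1.13 to -0.067, edgeR adjusted p = 0.0946), and Tnfrsf1a, at -0.18 (-0.34 to -0.014, adjusted p = 0.106). Each was called in 1 of 15 fits that left out a liver. These were the fit without old KO 6 for Tnfrsf12a (-0.80, edgeR adjusted p = 0.0278) and without young WT 6 for Tnfrsf1a (-0.22, 0.0379). Ltb was at 0.00077 (-0.61 to 0.61, adjusted p = 0.999), a wide interval around near-equal means of 0.665 and 0.669 CPM. Tnf was at 0.69 (-0.33 to 1.71, adjusted p = 0.315).

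**Figure D4:**
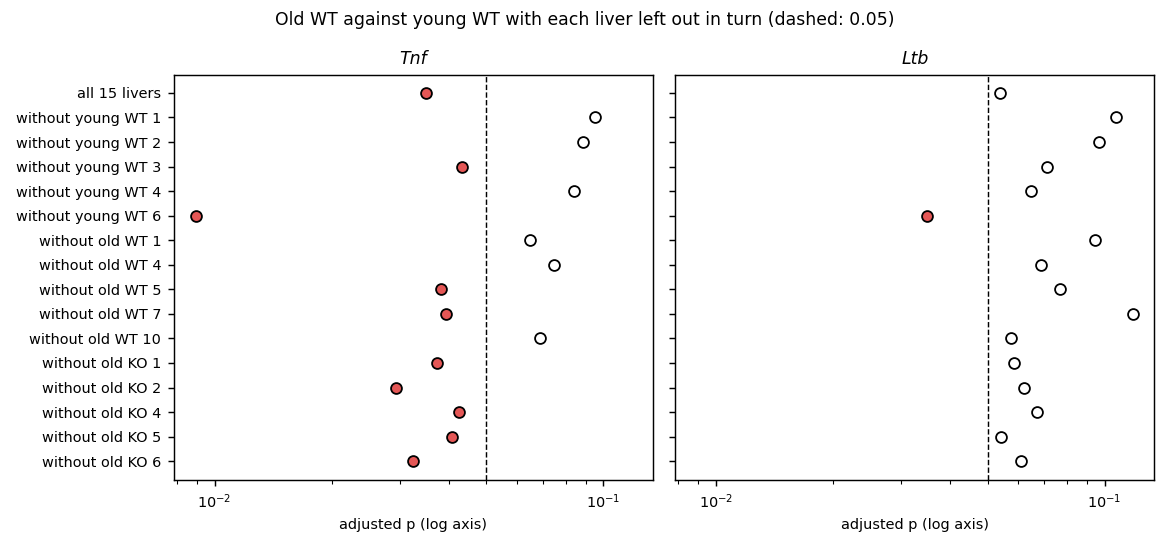
Adjusted p (log axis) of Tnf and Ltb in old against young WT with all 15 livers and with each liver left out in turn; filled points are under 0.05 (dashed line). Tnf ranged from 0.00894 to 0.0950 and was over the line without 6 of the 15 livers, whereas Ltb went under it only without young WT 6.

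Some cell type markers differed in these comparisons, and in whole liver fewer cells of a type and less RNA per cell cannot be told apart. Of all tested genes, edgeR called 18.8% with age and 0.533% with S6K1 loss. An unadjusted p under 0.05 was found for 33.0% and 11.6% of all tested genes in these 2 comparisons. Of 7 monocyte and macrophage markers, 4 rose with age and the summed level ran from 53.2 to 127 CPM in young WT and 96.1 to 174 in old WT. Of 7 T and NK cell markers 3 rose, with sums of 2.69 to 5.35 and 3.31 to 9.93 CPM, and of 5 B cell markers 1 rose, with sums of 2.56 to 5.73 and 4.35 to 13.3 CPM. Fitted values with age were above 0 for 5 of the T and NK cell markers and below 0 for 2, Cd4 (-0.61) and Klrb1c (-0.41), neither of them called. limma voom called 5 monocyte and macrophage markers but 0 T and NK cell and 0 B cell markers with age, while DESeq2 called 5, 3 and 1. None of the 9 Kupffer cell markers was called with age by edgeR, although 4 had an unadjusted p under 0.05, DESeq2 called 2 and limma voom 1 as higher, and their sums were 192 to 397 CPM in young WT and 237 to 568 in old WT. With S6K1 loss 6 of the 9 Kupffer cell markers fell, and their sums in old KO, 139 to 199 CPM, lay below every old WT liver. DESeq2 called 7 of them and limma voom 2, C1qb and Cd5l, all lower. Of the monocyte and macrophage markers 1, Cd68, fell in old KO (sums 51.3 to 101 CPM), where DESeq2 called 2 (Cd68 and Csf1r) and limma voom 0, while none of the T and NK cell (2.10 to 6.51 CPM) or B cell markers (3.48 to 7.45 CPM) was called by edgeR, DESeq2 or limma voom, with 1 of each at an unadjusted p under 0.05. Markers of other liver cells also fell with age by edgeR, namely 2 of 5 hepatocyte markers (Cps1, -1.27, adjusted p = 0.0197, and Apoa1, -0.69, 0.0241), 2 of 5 endothelial markers (Lyve1, -0.94, 0.0167, and Stab2, -0.56, 0.0358) and 1 of 5 stellate cell markers (Reln, -0.57, 0.0348). DESeq2 and limma voom called these 5 as well. Fitted values with age were above 0 for 1 of 5 hepatocyte, 1 of 5 endothelial and 3 of 5 stellate cell markers, and none of these was called. No marker of these lists was at 0 in all livers. The part of these cells in the values of the members was not tested.

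The genes whose log2 CPM followed Tnf most closely over the 15 livers were Ifi30 (Pearson r = 0.9), a lysosomal thiol reductase, Slc28a2 (0.88), a nucleoside transporter, and Olfm3 (0.875), an olfactomedin. These are descriptions over libraries that share group and depth. Among the members, Ltb (0.638), Cd40 (0.541) and Fas (0.527) had the highest r with Tnf, and Tnfrsf12a (-0.525) and Tnfrsf1a (-0.46) the lowest.

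Other genes of the pathway were read from 5 lists. With age, edgeR called 15 of their 76 tested genes, where it called 18.8% of all tested genes. Of 14 further ligands, 13 were found in the table and only Tnfsf14 and Eda passed the filter. Neither was called in any comparison by edgeR, DESeq2 or limma voom, and neither had an unadjusted p under 0.05. Fasl, the ligand of Fas, did not pass the filter and reached at most 14 reads in a liver. Of 22 further receptors 18 were tested, and 11.1% of them were called with age, against 18.8% of all tested genes. With age 2 of them rose, Eda2r, the receptor for ectodysplasin A2, by 1.44 (edgeR adjusted p = 0.00562), from a mean of 0.795 to 2.15 CPM, and Tnfrsf13b, the B cell receptor TACI, by 1.03 (0.0359), from 0.333 to 0.676 CPM. Eda2r was at 4.03 CPM in old WT 1 and at 0.996 to 2.09 CPM in the other old WT livers. Its call was kept in each of 15 fits that left out a liver, and that of Tnfrsf13b in 8 of 15.

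Among 29 signalling genes next to the receptors, 5 rose and 2 fell with age (24.1% called, against 18.8% of all tested genes). Map3k14, the kinase NIK of the noncanonical NF-kB pathway, rose by 1.01 (SE 0.126, edgeR adjusted p = 0.000207). It was at 2.63 to 3.34 CPM in the young WT livers, 5.37 to 6.86 in the old WT livers and 4.23 to 5.85 in the old KO livers, so that all old livers of both genotypes lay above all young livers. Ikbkb, the IkB kinase beta, rose by 0.32 (0.00612), Birc3, the ubiquitin ligase cIAP2, by 0.34 (0.0155), and the adaptor Traf1 by 1.10 (0.0245). Map3k14, Ikbkb and Birc3 were called in each of 15 fits without a liver and Traf1 in 10. Between old KO and old WT, Map3k14, Ikbkb, Birc3 and Traf1 were at -0.29, 0.034, -0.072 and -0.59. The edgeR adjusted p-values were 0.364, 0.913, 0.821 and 0.488, so none was called. In old KO against young WT, 6 of these 29 genes were higher and 4 lower (34.5% called, against 23.3% of all tested genes). In old KO, Map3k14 was higher than in young WT by 0.72 (edgeR adjusted p = 0.00126) and Ikbkb by 0.36 (0.00258). Tab1, an activator of the kinase TAK1, was lower by 1.11 on the log2 scale (0.00150).

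Of 22 tested NF-kB-responsive genes 6 rose with age and none fell (27.3% called, against 18.8% of all tested genes). The neutrophil chemokine Cxcl1 rose by 2.50 (SE 0.439, edgeR adjusted p = 0.00176), with 0.293 to 1.12 CPM in the young WT livers and 2.28 to 5.13 CPM in the old WT livers. Nfkb2, which encodes the p100 precursor of the noncanonical pathway, rose by 0.62 (0.00505), Tnfaip3, which encodes the inhibitor A20, by 0.71 (0.00906), and the interferon-inducible chemokine Cxcl10 by 1.41 (0.0129). These 4 were called in each fit without a liver. Cxcl1 was at 1.09 to 7.30 CPM in old KO and was higher there than in young WT by 2.65 (edgeR adjusted p = 0.000890), and its difference between old KO and old WT was 0.15 (0.933). Nfkb2, Tnfaip3 and Cxcl10 instead had lower fitted values in old KO than in old WT, at -0.41, -0.57 and -1.02. Their edgeR adjusted p-values were 0.203, 0.162 and 0.241, so none was called. None of the 5 shedding genes, which include the TNF sheddase Adam17, was called with age by edgeR or limma voom. Of these 5, 2 had an unadjusted p under 0.05, as did 33.0% of all tested genes. DESeq2 called Rhbdf1, an iRhom that escorts Adam17, as lower. Rhbdf1 fell in old KO against young WT by 0.59 on the log2 scale (edgeR adjusted p = 0.0140).

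None of the 76 tested genes of these lists was called between old KO and old WT by edgeR, while 19 had an unadjusted p under 0.05, 2 higher and 17 lower, where 11.6% of all tested genes had such a p. limma voom called none and DESeq2 called 5, all lower: Eda2r (-1.10, adjusted p = 0.0445), Tab1 (-0.69, 0.0489), Nfkbie (-0.66, 0.0406), and the adhesion molecules Vcam1 (-0.77, 0.0268) and Icam1 (-0.52, 0.0108). These 5 were named after their values were seen. By list, 17 of 18 further receptors, 17 of 29 signalling genes and 17 of 22 NF-kB-responsive genes had fitted values below 0, with medians of -0.39, -0.023 and -0.28.

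**Figure D5:**
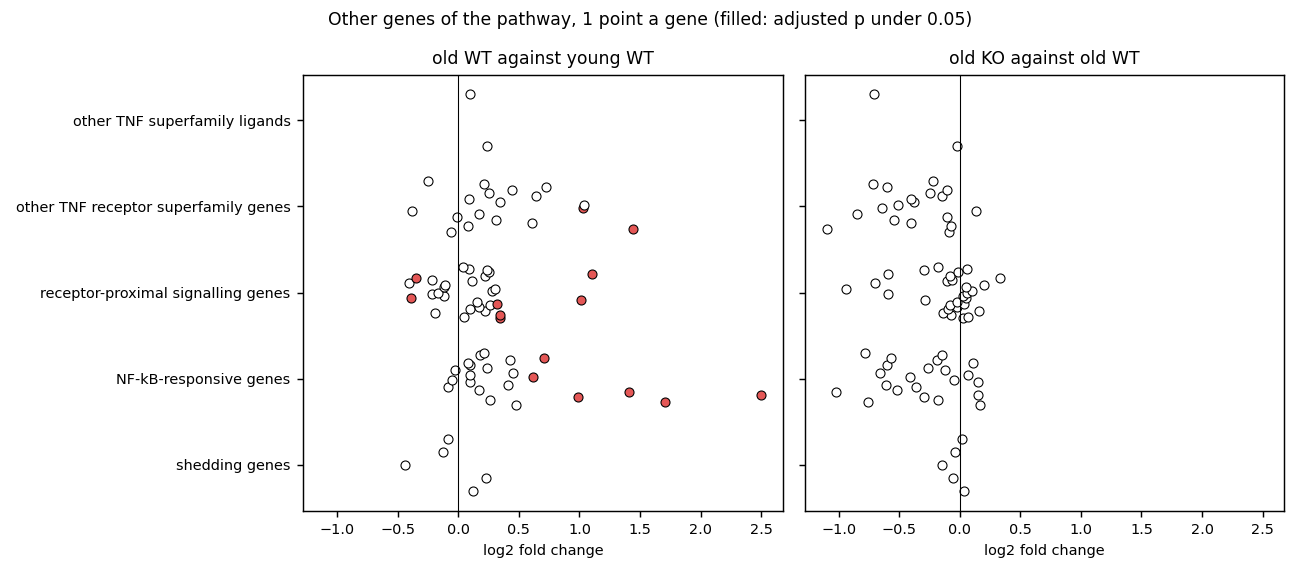
Fitted log2 fold change (x axis) of each tested gene in the 5 other lists of the pathway, for age (left) and genotype (right); filled points have an adjusted p under 0.05. With age 13 filled genes lie to the right of 0 and 2 to the left, and with genotype none is filled.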

How the data were processed

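The deposited table held whole-number read counts per Ensembl mouse gene identifier for the 15 liver libraries. Per the labels and the methods, the authors flash froze livers, extracted RNA with Trizol, made stranded poly(A) libraries, read them on an Illumina HiSeq and aligned with TopHat2 2.0.11 to mm9. Reads per gene were counted with HTSeq. The gene annotation and strand setting are not given in the sources used here. The submitters' processing notes also name CASAVA and DESeq2 1.18.1.

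From these raw counts, edgeR 4.0.16 (R 4.3.3) was used with TMM scaling, its default filter (14258 genes kept), the quasi-likelihood test over all 15 libraries and Benjamini-Hochberg adjustment. Alternatives were upper quartile and RLE scaling, no filter, DESeq2 1.42.0, limma voom (limma 3.58.1), the 10 libraries of a comparison alone, a replicate block and each library left out. The main edgeR fit was tested on data simulated for old WT against young WT, with changes placed only in well counted genes. That test does not cover counts as low as those of Tnf. The DESeq2, limma voom and replicate block fits were not tested in this way. Gene symbols, positions and exon lengths came from GENCODE M1 (NCBIM37). The 10 members and the gene lists were chosen with earlier results of these data known. The text names all members, up to 4 called genes per list with the smallest adjusted p for age and for genotype, and the 3 genes most correlated with each called member. For old KO against young WT, Map3k14, Ikbkb, Tab1, Cxcl1 and Rhbdf1 were picked outside this rule from 13 called genes of the lists. Of the list entries 1 (Tnfsf12) was not matched. Replicate libraries of a group differed by more than sampling noise in all 30 pairs (chi-square per degree of freedom 19.7 to 128). The methods describe the libraries as separate mice, and no batch is given in the labels.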

Additional observations from a re-analysis of the deposited data

Results flagged for a closer look

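Among 30 sets of 5 livers (10 genes in 3 groups), 3 held a liver far from the rest of its group by Dixon's criterion, where chance gives about 1 in 20, or 1.5 sets. Tnfsf13b was at 0.660 CPM in old WT 7 and 0.268 CPM in the next liver. Fas was at 32.7 CPM in young WT 6 and 19.5 CPM in the next, and without that liver Fas passed the test with age (0.81, edgeR adjusted p = 0.00826). Tnfrsf21 was at 5.90 CPM in young WT 1 and 6.84 CPM in the next, a low value in a group that otherwise spanned 6.84 to 7.03 CPM. Young WT 6 also held the lowest hepatocyte marker sum (73710 CPM) of all livers, and the part of this in its Fas value was not tested.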

How the results depend on the processing

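Of 648 differences recomputed under the alternatives, 598 kept their direction and side of the threshold, and of 132 recomputed counts of called genes 106 stayed within 1.5 times the main count. Members called with age numbered 1, against 0 without the low-count filter, 3 with DESeq2, 3 with limma voom and 0 to 3 when a liver was left out (3 without young WT 6, 2 without old WT 7, 0 without the 6 livers that Tnf needed). Other pathway genes called numbered 15 with age (9 without young WT 1 or young WT 4, to 19), 0 with genotype (5 with DESeq2, 1, Vcam1, with the 10 libraries alone, 0 to 1 without a liver, where the 1 was Vcam1 without young WT 2 or Icam1 without old KO 1), and 13 in old KO against young WT (6 without old KO 4, 7 without young WT 2, 8 without young WT 1 or old KO 5, to 16). In that comparison members called went from 0 to 1 without young WT 6 or without old KO 6.

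Same-numbered livers of different groups deviated with correlations of -0.153 to 0.077. Differently numbered livers were not set beside them, so whether the numbers pair the samples was not settled. A block on these numbers leaves fewer degrees of freedom than the main fit. Young WT 3, old WT 7 and old WT 10 share their number with no other liver, so they add nothing to its comparisons. With the replicate block, the counts with age were 0 members and 2 other genes (Map3k14 and Tank), and in old KO against young WT 7 other genes. It called 0 of the monocyte and macrophage, T and NK cell and B cell markers with age, and 0 Kupffer cell markers and not Cd68 with genotype. Tnf was then at 1.36 (adjusted p = 0.237).

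Signs turned only for values within 0.13 of 0. With age, Tnfsf10 was at 0.048 with limma voom, 0.32 with the replicate block and -0.13 to 0.24 without a liver. With genotype, the replicate block gave -0.011 for Tnfsf10 and 0.014 for Tnfrsf1a, and leaving out a liver gave -0.14 to 0.22 for Tnfsf10, -0.076 to 0.006 for Tnfrsf1a and -0.22 to 0.079 for Tnfrsf1b. In old KO against young WT, Ltb was at -0.012 with upper quartile scaling, -0.00017 with RLE, -0.0066 without the filter and -0.22 to 0.12 without a liver. There the replicate block gave 0.025 for Cd40 and -0.0013 for Tnfrsf21, and leaving out a liver gave -0.16 to 0.30 for Tnfsf10, -0.25 to 0.12 for Cd40, -0.034 to 0.13 for Tnfrsf21 and -0.10 to 0.28 for Tnfsf13b. The cause of these shifts was not tested. Tnf failed the filter in the 10 libraries of old KO and young WT alone, so that fit gave it no value. Depth limited Tnf, Ltb, Tnfsf13b and Cd40, with 50 reads or fewer in every library.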
